A study of Mus musculus with 123 samples.

Results

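Under the photoperiod that the labels call Equal light, liver RNA was compared between 2 diets, high fat (HFD) and low fat (LFD), across 6 zeitgeber times (ZT), labelled ZT0, 4, 8, 12, 16 and 20 h. The libraries were chosen by their titles, which give the photoperiod, the diet, the time and a library number. The 40 Equal light libraries, 20 HFD and 20 LFD, stand beside 41 libraries of Long light and 42 of Short light in the series. A library is named below by its number or, where the number is above 99, by its group and replicate. Each of the 12 groups of diet and time held 3 or 4 libraries, 8 groups with 3 and 4 groups with 4. All were liver of Mus musculus, read as poly-A RNA, and the labels give the groups no other treatment than diet and time. The library numbers in the titles were unequal between the diets, with 3 HFD and 11 LFD libraries numbered up to 44. Not given in the sources used here are the hours of light, the event that marks ZT0, the strain, sex and age of the mice, the make-up and length of the diets and the tie between libraries and animals. The p-values below therefore measure the spread between these samples, which may be partly technical. In liver tissue, fewer cells of a type and less RNA per cell cannot be told apart.

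The liver turns surplus carbohydrate into fatty acids and sterols through enzymes that the SREBP and ChREBP transcription factors raise, and it burns fatty acids in mitochondria and peroxisomes through enzymes that the nuclear receptor PPARα raises. Feeding and insulin favour the first programme, and fatty acids themselves are ligands of PPARα. Both programmes cycle over the day, together with a molecular clock in which the activators ARNTL, CLOCK and NPAS2 drive their own repressors through E-box sequences, and with D-box sequences bound by the output factors DBP, TEF and HLF.

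The clock genes were used to check the time labels. All 15 core clock genes entered that check together, and the size of each gene's daily swing beside the spread within a group was not measured. The promoters of 2 of them show the elements they are known for. The windows lie upstream of the start site and come from RefSeq promoters of build GRCm38.p6, with the E-box CACGTG of Ciart (a clock repressor) and the D-box TTATGTAA of Per3 (a period gene) in capitals. They are chr3:95882255-95882356 on the minus strand, 128 to 27 bases before the start of Ciart with 3 E-boxes, and chr4:151044804-151044882 on the minus strand, 217 to 139 bases before the start of Per3 with 2 D-boxes.
Ciart: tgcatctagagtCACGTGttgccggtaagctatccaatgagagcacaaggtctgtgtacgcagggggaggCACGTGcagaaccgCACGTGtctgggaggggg
Per3: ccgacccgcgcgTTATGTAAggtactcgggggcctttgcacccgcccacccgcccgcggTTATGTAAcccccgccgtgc
The E-box was found in 7.15% and the D-box in 0.94% of 32851 promoters of 300 bases, on either strand. A match is a description of letters only.

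Each library was set beside the mean of the other Equal light libraries at each labelled time over these 15 genes, leaving library numbers 49 to 64 out of the means. Of the 32 libraries outside that range, 31 were nearest to their own labelled time, with a median distance of 0.5 (root mean square, log2 CPM, range 0.33 to 0.96). Of the 8 libraries numbered 49 to 64, 3 were nearest to their own time, and the median distance was 1.125 (range 0.41 to 2.86). The largest distance was that of the library labelled LFD ZT12 and numbered 54, whose clock genes were nearest to ZT20. The libraries labelled HFD ZT12 (number 57) and HFD ZT16 (number 64) were nearest to ZT4, the library labelled HFD ZT4 (number 53) to ZT8, and the library labelled LFD ZT8 (number 61) to ZT4. The exception outside the range was the library labelled HFD ZT20 and numbered 46, nearest to ZT0. Nr1d1, which encodes the clock repressor REV-ERBα, shows the pattern in single values: it stood at 3.96 and 4.51 log2 CPM in 2 of the HFD ZT12 libraries and at 7.32 in number 57, and at 1.21 and 2.15 in 2 of the HFD ZT16 libraries and at 7.35 in number 64. Some of the 8 also stood apart from their labelled diet. Cyp2b9, described below, was at -2.01 and -3.02 log2 CPM in the libraries labelled HFD and numbered 53 and 57, below the 0.86 to 6.01 of the HFD libraries outside the range, and at 4.22 in number 50, labelled LFD, above the -3.61 to 1.52 of the LFD libraries outside it. Whether samples or labels were exchanged was not tested, no library was moved to another group, and each value with all libraries takes the labels as given. Counts and the values of leading genes are given with all libraries and without numbers 49 to 64, which leaves 16 HFD and 16 LFD libraries. That range came with the question and was known from earlier results of these data, so the second value is not independent evidence for the first.

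**Figure D1:**
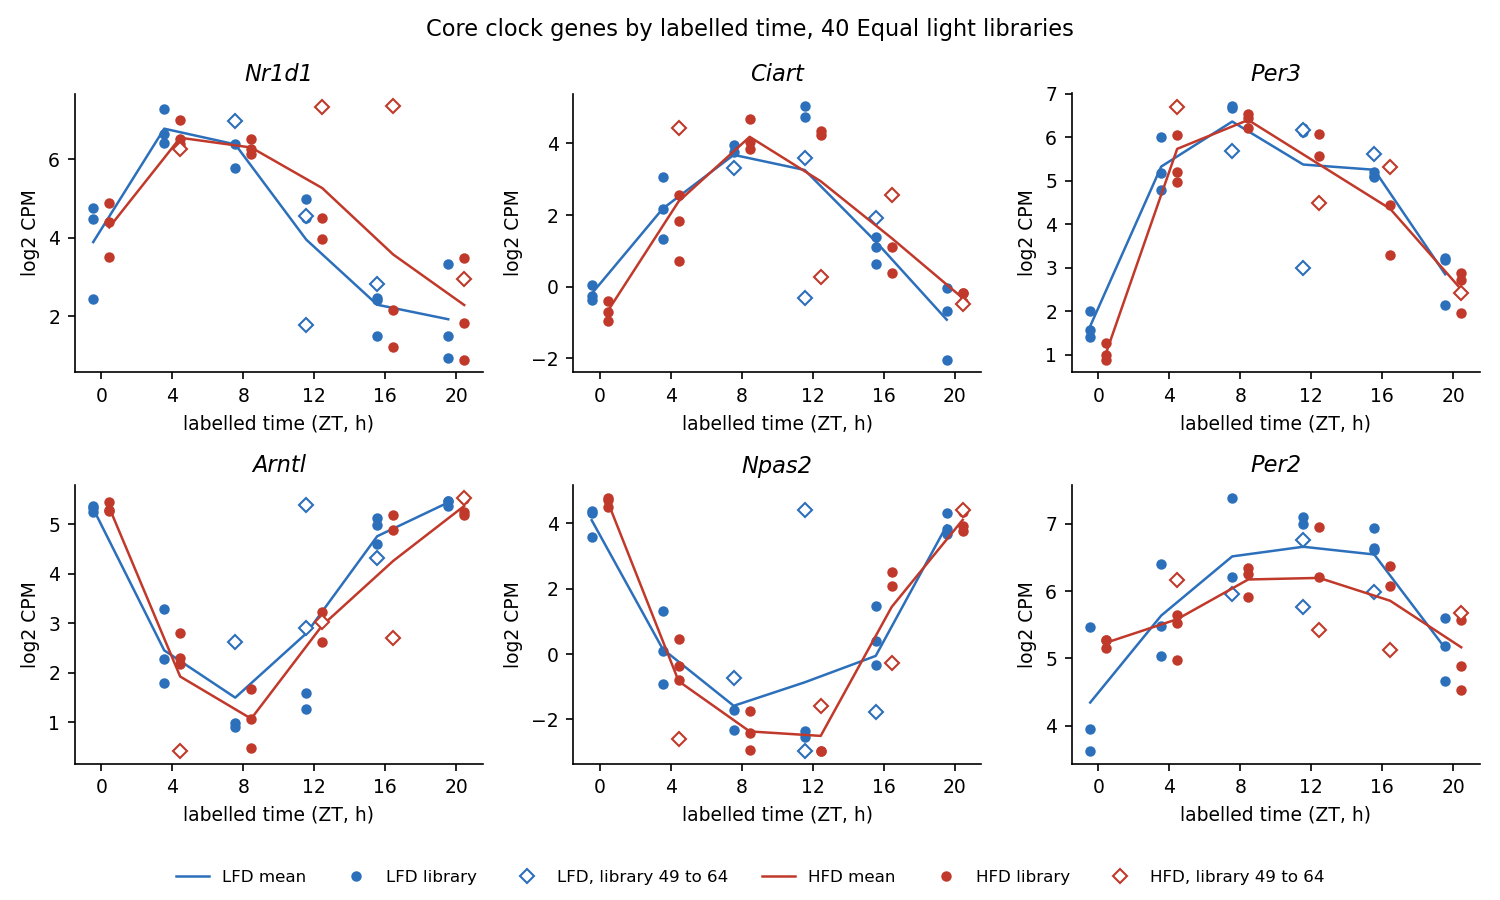
Log2 CPM of 6 core clock genes (vertical axes) in each of the 40 Equal light libraries by labelled time (horizontal axes, ZT in h), with lines through the group means. HFD is red, LFD blue, and the open diamonds are the 8 libraries numbered 49 to 64, of which those labelled HFD ZT12, HFD ZT16 and LFD ZT12 at the extremes (Nr1d1 at 7.32, 7.35 and 1.78) lie far from the other libraries of their group.

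The libraries held 16.52 M to 36.27 M recovered reads, with 24.4 ± 4.74 M (SD, n = 20) in HFD and 23.84 ± 3.63 M (SD, n = 20) in LFD. The 9 hepatocyte markers in the table averaged 11.92 to 12.38 log2 CPM in all 40 libraries, the highest of any marker list in each diet. Pancreas acinar markers averaged above 4 in 1 LFD library (8.01) and skeletal muscle markers in 2 LFD libraries (up to 5), and in no HFD library. The LFD ZT0 library numbered 44 had the highest mean of the stellate cell (5.45), cholangiocyte (3.87) and macrophage (4.93) markers. This library also averaged 3.94 for pancreas acinar markers, just below 4, beside an LFD median of -2.275. It therefore stayed in when libraries above 4 in pancreas or muscle markers were left out. With numbers 45 (HFD ZT4) and 46 (HFD ZT20) it lay farthest from its group mean over the tested genes with a mean above 2 log2 CPM. Library numbers were unequal between the diets, with a median of 71.5 in HFD and 43 in LFD. The sources used here do not say what the numbers stand for.

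The first question was which genes differed between the diets over the whole day. Fabp5, Pnpla3, Pnpla5 and Adgrf1 fell most in HFD and Cyp4a14, Cyp4a10, Mup17 and Adgrv1 rose most, among genes with a mean of at least 2 log2 CPM. Among the gene lists described below, 21 of 30 genes of fatty acid oxidation rose, while 6 of 20 genes of fatty acid synthesis and 4 of 25 of cholesterol synthesis fell. Limma called 986 of 14397 genes (6.85%) at an adjusted p under 0.05 for the HFD minus LFD difference averaged over the 6 times, 504 higher (3.5%) and 482 lower (3.35%) in HFD. Of these, 196 differed by more than 1.5-fold, 91 of them higher in HFD, and 62 by more than 2-fold. The median log2 difference over all genes tested was -0.011, and 2890 of the 14397 had an unadjusted limma p under 0.05. Without library numbers 49 to 64, 1414 genes were called (9.82%), 745 higher (5.17%) and 669 lower (4.65%). The 860 genes called both ways, 87.2% of the first list and 60.8% of the second, had the same sign in both. Of 46 called genes examined under other settings, 15 stayed called under all 18 settings tried. Another 22 lost the call only when all libraries of replicate 1, 2, 3 or 4 were left out. A replicate 4 was held by only 4 of the 12 Equal light groups. With only the 40 Equal light libraries in the fit, Sqle, Mup17, Mup18, Vsig4, Cyp8b1, Hamp and Scd2 were not called (limma adjusted p from 0.0509 to 0.18). With limma-voom on recovered reads, Cyp4a14, Cyp2b9, Hamp and Scd2 were not called (adjusted p from 0.05055 to 0.157). The median size of the first list's differences was 0.314 log2 with all libraries and 0.353 without the 8.

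Fabp5 (chromosome 3, 10012548 to 10016607, plus strand), the largest decrease among the named genes, encodes a fatty acid binding protein. It ranged from 2.24 to 8.20 log2 CPM with a median of 3.55 in HFD, and from 3.43 to 8.85 with a median of 7.28 in LFD. The groups overlapped: the 8.20 belongs to the library labelled HFD ZT4 and numbered 53, where the other HFD ZT4 libraries stood at 3.94 to 4.62, and the 3.43 to the LFD ZT0 library numbered 44. Fabp5 was 6.66-fold lower in HFD (log2 difference -2.73, SE 0.45, limma adjusted p = 3.05e-05), lower at all 6 times, and 9.80-fold lower without numbers 49 to 64.

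Pnpla3 and Pnpla5, neighbours on chromosome 15, encode patatin-like proteins, and PNPLA3 sits on lipid droplets. Pnpla3 (84167837 to 84187236, plus strand) ran from -0.70 to 5.09 with a median of 2.49 log2 CPM in HFD and from 0.90 to 7.14 with a median of 4.95 in LFD. It fell 4.71-fold (log2 difference -2.23, SE 0.52, adjusted p = 0.00338), with 1 of 20 HFD libraries above the LFD median. Pnpla5 (84112356 to 84123175, minus strand) had medians of 1.01 and 3.16 and fell 4.45-fold (adjusted p = 0.00942). The ranges of both genes overlapped widely between the diets.

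Prss8, a membrane-anchored serine protease gene, had the smallest SE of the 12 largest decreases. It ran from 0.53 to 4.58 log2 CPM with a median of 1.46 in HFD and from 1.94 to 4.75 with a median of 3.15 in LFD, and 13 of 20 HFD libraries lay below the lowest LFD library. The log2 difference was -1.46 (SE 0.23, adjusted p = 1.26e-05) and -1.87 without numbers 49 to 64. Lepr, the leptin receptor, had medians of 1.97 in HFD and 3.79 in LFD (ranges 1.21 to 3.86 and 1.70 to 5.76) and fell 2.81-fold (log2 difference -1.49, SE 0.25, adjusted p = 3.05e-05). For Lepr 7 of the HFD libraries lay below every LFD library. Adgrf1, an adhesion G protein-coupled receptor, had medians of 2.57 and 4.28 and fell 3.37-fold (adjusted p = 0.000862). Slc2a4, the insulin-responsive glucose transporter GLUT4, had medians of 1.41 and 3.25 and fell 2.76-fold, and Cib3, a calcium and integrin binding protein, had 0.88 and 2.82 and fell 3.06-fold (adjusted p = 0.00184 and 0.00244).

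G6pdx, the enzyme that opens the pentose phosphate pathway and makes NADPH for lipid synthesis, ran from 2.65 to 6.14 with a median of 3.02 log2 CPM in HFD and from 3.11 to 7.51 with a median of 4.17 in LFD. It fell 2.72-fold (log2 difference -1.45, SE 0.37, adjusted p = 0.00677), and 12 HFD libraries lay below the lowest LFD library. Its highest HFD value was again number 53 and its highest LFD value number 54. Of 10 genes of the pentose phosphate and NADPH list, 3 fell and 0 rose, with a median log2 difference of -0.14. Me1, the malic enzyme that also yields NADPH, fell 1.98-fold (adjusted p = 0.0425).

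**Figure D2:**
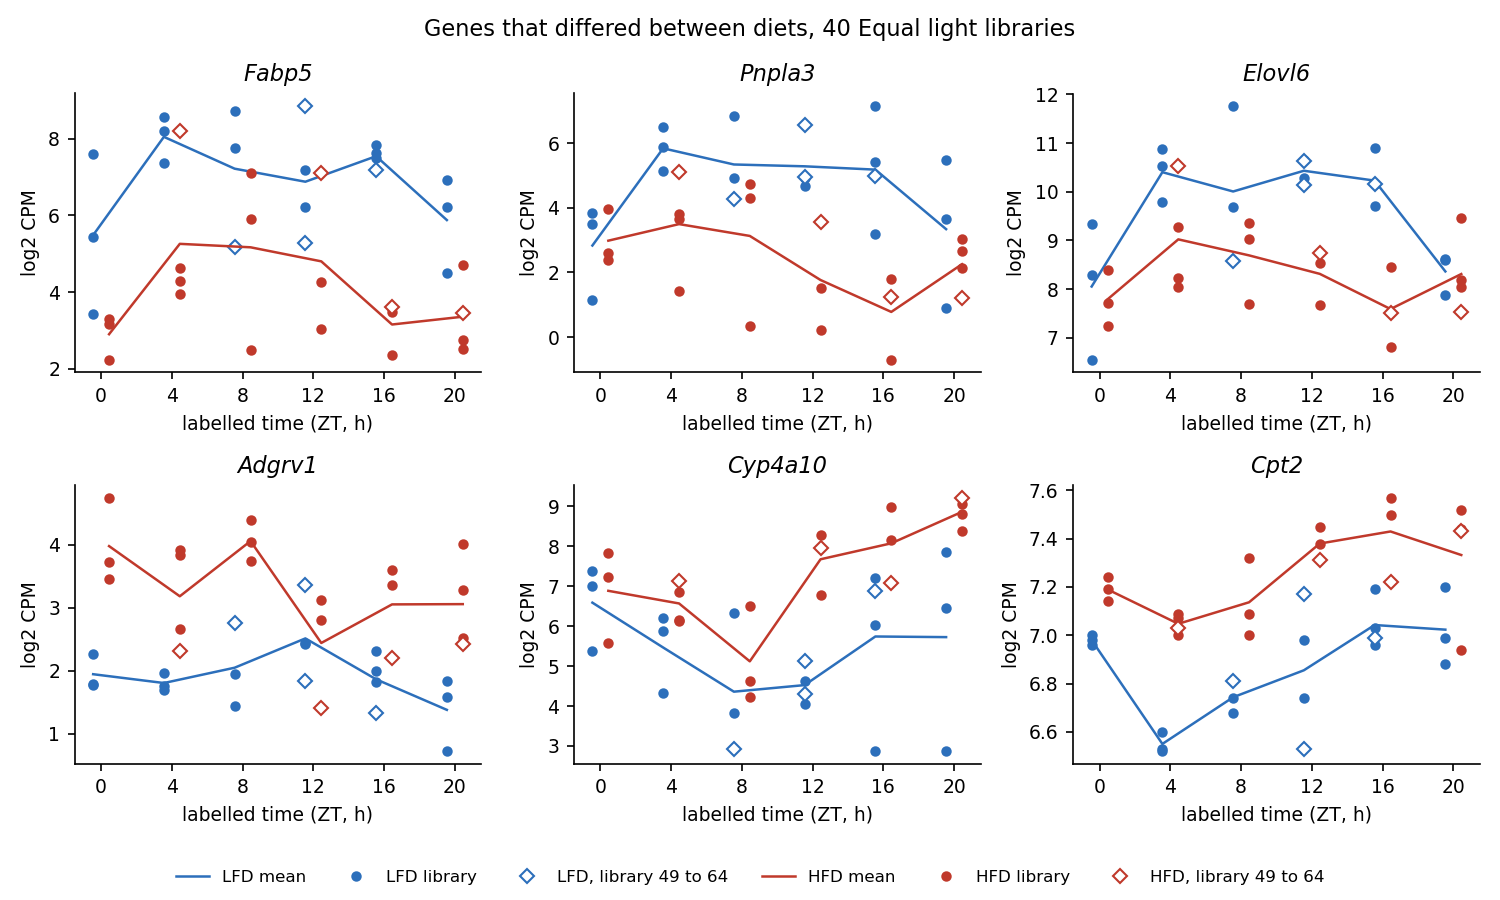
Log2 CPM of 3 genes that fell in HFD (Fabp5, Pnpla3, Elovl6) and 3 that rose (Adgrv1, Cyp4a10, Cpt2) in each of the 40 Equal light libraries by labelled time (ZT in h), with lines through the group means. HFD is red and LFD blue, open diamonds are library numbers 49 to 64, and for Fabp5 the HFD diamonds at ZT4 (8.20) and ZT12 (7.11) lie above the other HFD libraries of those times.

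The genes of fatty acid synthesis that passed were lower in HFD. Of 20 measured members 6 fell and 0 rose, 17 had a difference below 0, and the median log2 difference was -0.44 beside -0.011 over all genes. The 6 that fell were Elovl6, Acaca, Acss2, Acacb, Me1 and Scd2. Elovl6, which lengthens palmitate, ran from 6.82 to 10.53 with a median of 8.21 log2 CPM in HFD and from 6.55 to 11.76 with a median of 9.98 in LFD. It fell 2.45-fold (log2 difference -1.29, SE 0.35, adjusted p = 0.0117). Acaca and Acacb, the 2 acetyl-CoA carboxylases, fell 1.90-fold and 1.94-fold, and Acss2, which makes acetyl-CoA from acetate, fell 1.96-fold (adjusted p = 0.0168, 0.03915 and 0.0308). Fasn and Acly, named after their values were seen because they are the best-known members, had log2 differences of -0.92 and -0.91. Both passed without numbers 49 to 64 but not with all libraries. The regulators Srebf1 (0.04) and Mlxipl (-0.20), which encode SREBP1 and ChREBP, did not pass in either fit and were named in the same way.

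Without numbers 49 to 64, 8 members of the fatty acid synthesis list fell and 1 rose (Insig2, log2 difference 0.485). Scd2 was then no longer called (limma adjusted p = 0.0948). Counted in either direction, the 6 calls became 4 or fewer when any 1 of 21 single libraries was left out. They were down to 1 without LFD ZT8 replicate 1, and 10 without number 44. Acaca lost its call without LFD ZT8 replicate 1, Acss2 without any 1 of 7 libraries, and Acacb, Me1 and Scd2 without any 1 of 18, 22 and 16. Elovl6 and G6pdx kept theirs without any single library.

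All 25 measured genes of cholesterol synthesis and uptake had a difference below 0, with a median of -0.38. Of these 4 fell, among them Pmvk, Lss and Sqle, and 0 rose. Sqle, squalene epoxidase, had medians of 4.37 log2 CPM in HFD and 5.42 in LFD and fell 2.45-fold (adjusted p = 0.0357), and 8 HFD libraries lay below its lowest LFD library. Pmvk, phosphomevalonate kinase, and Lss, lanosterol synthase, fell 1.72-fold and 1.66-fold (adjusted p = 0.0187 and 0.0325).

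Without numbers 49 to 64, 14 cholesterol genes fell and the list median was -0.56, and Sqle fell 3.23-fold. The count of 4 was 1 or 2 when any 1 of the libraries numbered 6, 7, 17, 45, 54 and 72, HFD ZT8 replicate 1 and LFD ZT8 replicate 1 was left out, and 6 to 10 when 1 of numbers 42, 44, 53, 57, 60, 61, 64 and 87, HFD ZT8 replicate 2 and LFD ZT12 replicate 1 was. Pmvk lost its call without HFD ZT8 replicate 1, and Lss and Sqle without any 1 of 9 and 15 libraries.

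**Figure D3:**
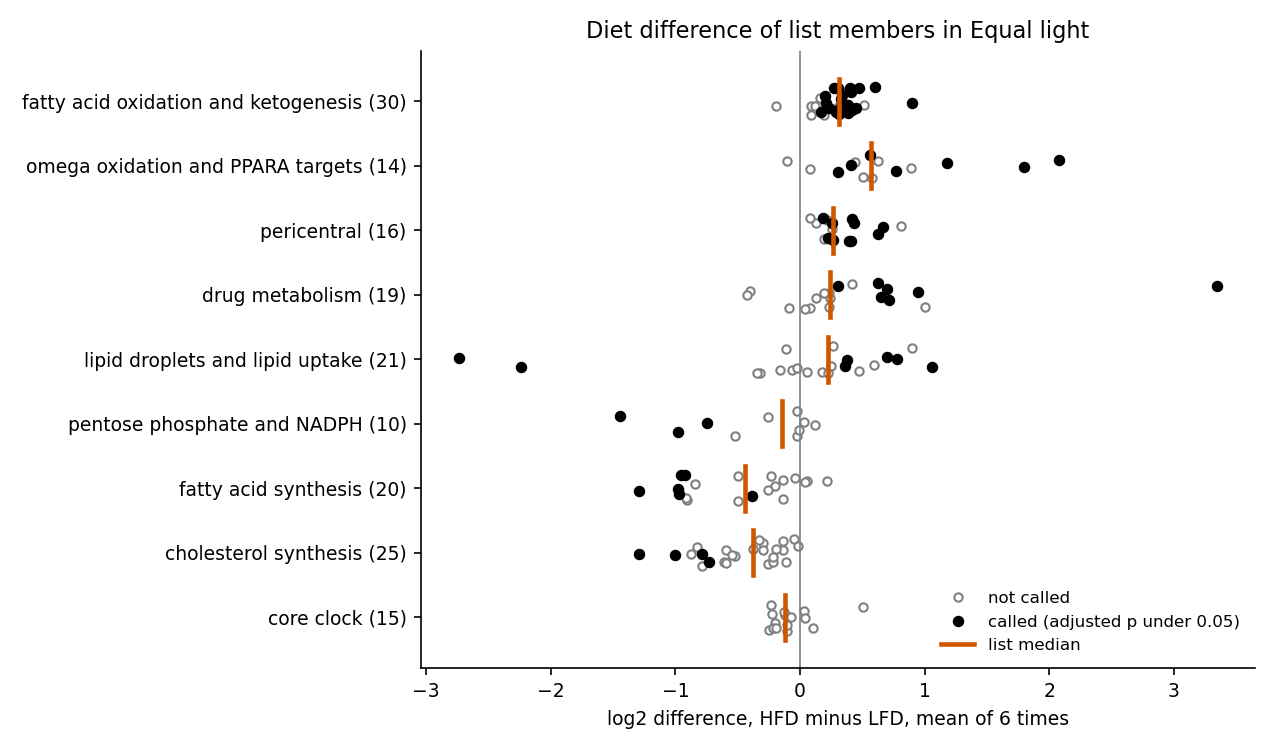
Log2 difference between HFD and LFD, averaged over 6 times (horizontal axis), of each measured member of 9 gene lists (rows, number measured in brackets). Filled points passed an adjusted p of 0.05, open points did not, and the bar is the list median, which was 0.57 for omega oxidation and PPARA targets and -0.44 for fatty acid synthesis.

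The list of oxidation and ketogenesis genes had the highest share of called genes among the 38 lists. Of 30 measured members 21 rose and 0 fell in HFD, 29 had a difference above 0, and the median log2 difference was 0.31. Cpt2, the inner-membrane carnitine palmitoyltransferase (chromosome 4, 107903981 to 107923610, minus strand), ran from 6.94 to 7.57 with a median of 7.23 log2 CPM in HFD and from 6.52 to 7.20 with a median of 6.96 in LFD. Of 20 HFD libraries, 11 lay above the highest LFD library. Cpt2 rose 1.31-fold (log2 difference 0.39, SE 0.06, adjusted p = 1.26e-05).

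Etfdh, which hands the electrons of acyl-CoA dehydrogenases on to ubiquinone, rose 1.26-fold, from a median of 7.94 in LFD to 8.29 in HFD (adjusted p = 1.74e-05). The carnitine carrier Slc25a20 and the medium-chain dehydrogenase Acadm rose 1.32-fold and 1.34-fold. Cpt2, Etfdh, Slc25a20 and Acadm kept their call under every setting tried and without any single library. Without numbers 49 to 64, 20 of the 30 rose and the median was 0.30. Over single libraries left out, the list's count stayed between 19 and 23.

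Omega oxidation and other PPARα target genes had larger differences and a wider spread. Of 14 measured, 7 rose and 0 fell, with a median of 0.57. Cyp4a10, a microsomal fatty acid omega-hydroxylase, ran from 4.22 to 9.22 with a median of 7.19 log2 CPM in HFD and from 2.87 to 7.86 with a median of 5.63 in LFD. It rose 3.48-fold (log2 difference 1.80, SE 0.46, adjusted p = 0.00772) at all 6 times. Cyp4a14, its relative, ran from 1.79 to 8.74 and from 0.17 to 8.52, with medians of 6.39 and 3.69, and rose 4.22-fold (log2 difference 2.08, SE 0.65, adjusted p = 0.0348) at 4 of 6 times. Cyp4a14 had an adjusted p of 0.06 without numbers 49 to 64 and also lost its call without any 1 of 13 single libraries. Cyp4a genes have close relatives that counting can split.

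Vnn1, the pantetheinase that frees cysteamine, ran from 4.36 to 6.52 with a median of 5.50 log2 CPM in HFD and from 2.51 to 5.07 with a median of 4.27 in LFD. All 20 HFD libraries lay above the LFD median, 16 above the highest LFD library, and Vnn1 rose 2.26-fold (log2 difference 1.18, SE 0.26, adjusted p = 0.00134). Aldh3a2, which oxidises fatty aldehydes, rose 1.70-fold and Creb3l3, a liver transcription factor of fasting, 1.23-fold (adjusted p = 0.000703 and 0.00515). Acot1, a cytosolic acyl-CoA thioesterase with near-identical neighbours, rose 1.87-fold (adjusted p = 0.0184), and its reads may be shared with those copies.

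Adgrv1, a very large adhesion G protein-coupled receptor (chromosome 13, 81095068 to 81633154, minus strand), ran from 1.40 to 4.75 with a median of 3.41 log2 CPM in HFD and from 0.72 to 3.36 with a median of 1.83 in LFD, and rose 2.59-fold (log2 difference 1.37, SE 0.21, adjusted p = 1.26e-05). The overlap came from library numbers 49 to 64: without them HFD ran from 2.52 to 4.75 and LFD from 0.72 to 2.44, and the groups did not overlap. With all libraries 0 of 14397 genes had diet groups that did not overlap, and without the 8 there were 3, namely Adgrv1, Agxt2 (higher in HFD, log2 difference 0.39) and Rpl12 (lower, -0.39), the latter 2 named after their values were seen. All 3 were among the 9.82% called.

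Aatk, a kinase gene expressed mainly in nerve tissue, ran from 1.61 to 4.74 with a median of 3.57 in HFD and from 0.84 to 3.22 with a median of 2.34 in LFD. It rose 2.28-fold (log2 difference 1.19, SE 0.20, adjusted p = 2.69e-05), with 14 HFD libraries above the highest LFD library. Gdf15, a stress-induced hormone of the TGF-β family, had medians of 3.90 and 3.32 and rose 2.18-fold (adjusted p = 0.0228), but not without any 1 of the libraries numbered 6, 17 and 72 and LFD ZT8 replicate 2. Hectd2os, a non-coding RNA gene, rose 2.11-fold (adjusted p = 0.00345). Reads of an overlapping partner cannot be told apart unless the counting used strand, which the sources used here do not state. Mup17 and Mup18, major urinary protein genes, rose 2.78-fold and 2.48-fold (adjusted p = 0.0161 and 0.0154). Both are uncertain, since their gene family holds copies that are nearly the same, and both lost their call without the LFD ZT0 library numbered 44, where they stood lowest.

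Genes of lipid droplets and lipid uptake moved in both directions: of 21 measured, 5 rose and 2 fell (Fabp5 and Pnpla3), and 8 rose and 2 fell without numbers 49 to 64. Fitm1, which promotes the budding of lipid droplets, had medians of 4.16 in HFD and 3.54 in LFD and rose 1.72-fold (log2 difference 0.78, SE 0.18, adjusted p = 0.00367). The 5 that rose also held the genes of a fatty acid transporter and of a monoacylglycerol acyltransferase (Slc27a2, log2 difference 0.38, and Mogat1, 1.06).

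Of 16 measured genes of pericentral hepatocytes, the cells around the central vein, 10 rose and 0 fell in HFD. The other members, Cyp7a1, Nkd1, Tbx3, Rhbg, Cyp1a2 and Axin2, did not pass, and the median was 0.26. The counts were the same without numbers 49 to 64, but 6 rose with only the 40 Equal light libraries in the fit, 7 with library number as a covariate and 3 without replicate 1 of every group. Oat, ornithine aminotransferase, ran from 9.47 to 10.50 with a median of 9.93 log2 CPM in HFD and from 8.53 to 9.88 with a median of 9.31 in LFD. It rose 1.59-fold (log2 difference 0.67, SE 0.12, adjusted p = 8.12e-05), with all 20 HFD libraries above the LFD median. Cyp2e1, the ethanol-oxidising cytochrome P450, rose 1.54-fold and Lect2, a hepatokine, 1.32-fold (adjusted p = 0.00548 and 0.00017). The part that the mix of zones in each piece of liver plays was not tested. The urea cycle and periportal list, the markers of the opposite zone, had 0 of 14 members called by limma and a median of -0.03. Of these members 5 had an unadjusted p under 0.05, beside 2890 of 14397 over all genes. Without the 8 libraries 2 were higher and 1 lower.

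Of 19 drug metabolism genes 7 rose and 0 fell, with a median of 0.24. Nr1i3, which encodes the xenobiotic receptor CAR, ran from 5.06 to 7.35 with a median of 6.17 in HFD and from 3.98 to 6.36 with a median of 5.27 in LFD, and rose 1.93-fold (log2 difference 0.95, SE 0.19, adjusted p = 0.000458). Cyp2b9, a female-biased cytochrome P450 of mouse liver and a CAR target, ran from -3.02 to 6.01 with a median of 3.21 in HFD and from -3.61, the floor of the table, to 4.22 with a median of -0.80 in LFD. Its log2 difference of 3.34 (SE 0.81, adjusted p = 0.00472) was the largest of any named gene, but its mean lay below the level set for the leading genes. Without numbers 49 to 64 it was 4.33, and HFD ran from 0.86 to 6.01 and LFD from -3.61 to 1.52. Cyp2b9 has close copies, and limma-voom on recovered reads did not call it (adjusted p = 0.157).

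The bile acid, amino acid and acute phase lists had calls mainly in the higher direction. Over all genes 6.85% were called, 3.5% higher and 3.35% lower in HFD. Of 20 bile acid genes 4 rose and 0 fell, among them Cyp8b1, which makes cholic acid (1.40-fold, adjusted p = 0.0108), and Abcc3, an exporter of bile salts to the blood (1.68-fold, adjusted p = 0.0128). Cyp8b1 lost its call under 4 of 18 settings, with a log2 difference of 0.25 at the lowest, and Abcc3 under 2. Of 19 genes of amino acid catabolism 5 rose and 0 fell. With only the 40 Equal light libraries in the fit, or with quantile normalization, 2 bile acid and 2 amino acid genes were called. Of 20 acute phase genes 4 rose and 1 fell, and without numbers 49 to 64 8 rose and 1 fell. The gene that fell was Hamp, the iron hormone hepcidin, which ran from 1.52 to 9.38 with a median of 7.81 in HFD and from 7.39 to 9.61 with a median of 8.60 in LFD (log2 difference -0.89, SE 0.29, adjusted p = 0.0456). Hamp lost its call without any 1 of 21 libraries.

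Markers of other cells were examined in the same way. Counts at an unadjusted p under 0.05 stand beside 2890 of 14397 over all genes. Of 20 macrophage and Kupffer cell markers 2 rose and 1 fell, beside 6.85% called over all genes, with 9 at an unadjusted p under 0.05, and without numbers 49 to 64 8 rose and 1 fell, with a median of 0.33. Their mean level ran from 3.28 to 4.08 log2 CPM in HFD and from 2.99 to 4.93 in LFD. Vsig4, a Kupffer cell receptor, rose 1.25-fold (adjusted p = 0.0258), but not without the library numbered 72 or LFD ZT8 replicate 1. Limma called 0 of the 56 lymphocyte, endothelial, cholangiocyte, pancreas and muscle markers with all libraries, with 2 at an unadjusted p under 0.05, and 2 endothelial markers rose without the 8. In the other marker lists 1 of 12 stellate cell markers (Reln, log2 difference 0.20) and 1 of 6 adipocyte markers (Car3, 0.66) rose. Of 5 blood markers 1 (Slc4a1, -0.74) fell. These counts also stand beside the 6.85% over all genes. Differences below 0 were found for 7 stellate cell, 3 adipocyte and 4 blood markers, with list medians of -0.02, 0.10 and -0.27. Of 18 genes of the unfolded protein response limma and limma-voom called 0, with 8 at an unadjusted p under 0.05 and a median of 0.29. Limma with array weights called 4 of them, but that setting also raised the calls over all genes, as given below. Of the 15 core clock genes limma and limma-voom called 0, with 1 (Rora, a clock activator) at an unadjusted p under 0.05, and limma with array weights called 1. Their differences ran from -0.25 for Bhlhe40 to 0.51 for Nr1d1, with SEs of 0.16 and 0.39. In the fit without the 8 libraries, 9 of the 15 had the other sign, among them Nr1d1 (-0.05) and Arntl (0.27, from -0.22 with all libraries).

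**Figure D4:**
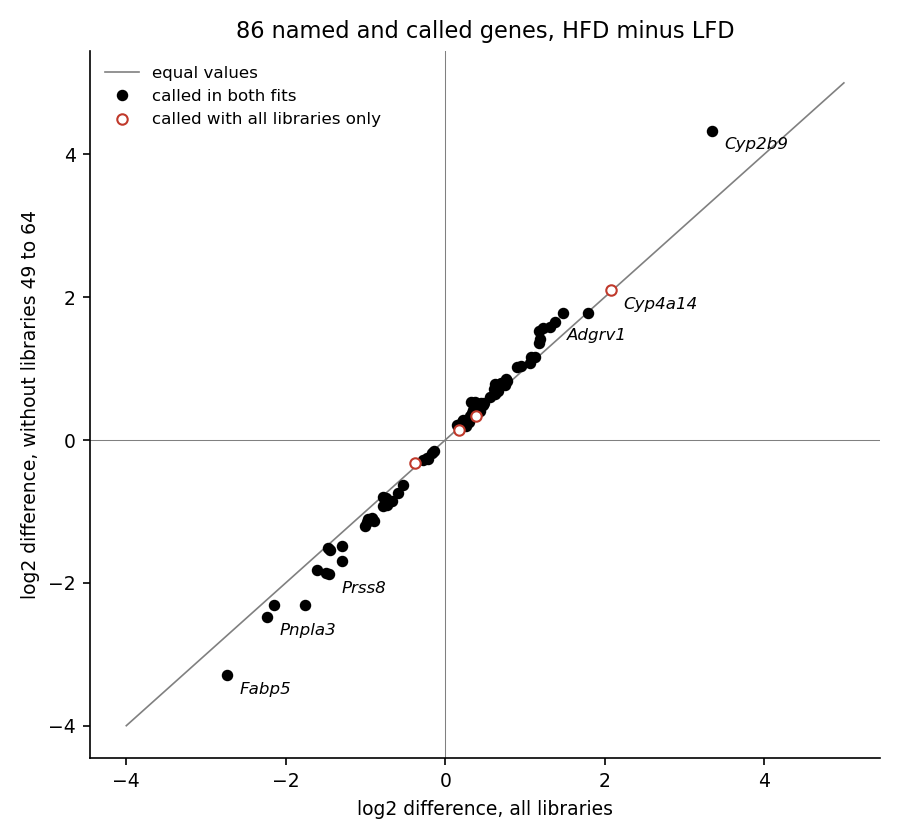
Log2 difference between HFD and LFD of the 86 named genes called with all libraries, with all libraries (horizontal axis) against the fit without library numbers 49 to 64 (vertical axis). All lie on the same side of 0 in both, 78 of 86 were larger without the 8 libraries, and the 4 open points (Cyp4a14 the largest) were called with all libraries only.

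The next question was whether the diet difference varied with time of day. Limma called 0 of 14397 genes (0%) for diet by time, with 554 at an unadjusted p under 0.05 and a smallest adjusted p of 0.9928. The 554 are a smaller share of all genes than the 0.05 of that threshold. Limma-voom also called 0, and so did limma without numbers 49 to 64, with 727 at an unadjusted p under 0.05. Leaving out the LFD ZT0 library numbered 40 gave 17 calls. The genes with the smallest unadjusted p were Crispld2, Nrde2, Heph, Myzap, Pygl, Zfp217 and Dusp14, with p between 0.000307 and 0.001205. Pygl, the liver glycogen phosphorylase, had log2 differences of 0.50 at ZT0 and -0.54 at ZT12, and Dusp14, a protein phosphatase gene, had 2.2 at ZT0 and -0.06 at ZT12. Neither passed for diet by time, so that these values are a description.

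Within single times, limma called 33 genes at ZT0, 0 at ZT4 and ZT8, 1 at ZT12, 2 at ZT16 and 1 at ZT20, and without numbers 49 to 64 it called 52, 3, 0, 0, 0 and 37. At ZT4 and ZT8, 804 and 427 genes (5.6% and 3%) had an unadjusted p under 0.05. The ZT0 count rests on single libraries, since it was 679 without the LFD library numbered 40, 245 without number 17 and 0 without number 44, the library high in markers of other liver cells.

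List medians by time are given as values, since limma called 0 genes for diet by time. The ZT0 medians rest on 3 LFD libraries, among them number 44, which lay far from its group mean. Leaving out number 44 raised the calls over all times to 10 from 6 among fatty acid genes, and to 8 from 4 among cholesterol genes. How the ZT0 medians change without number 44 was not tested. No ZT0 library is numbered 49 to 64. Fatty acid synthesis genes had a median of 0.05 at ZT0, -0.63 at ZT4, -0.34 at ZT8, -1.0 at ZT12, -1.03 at ZT16 and -0.16 at ZT20. Cholesterol synthesis genes had 0.10, -0.47, -0.51, -0.70, -0.73 and -0.26 at the same times. Fatty acid oxidation genes stayed between 0.20 and 0.41, above 0 at every time. Omega oxidation and PPARα targets ran from -0.02 at ZT0 to 1.13 at ZT12. Without numbers 49 to 64 the synthesis medians of fatty acids were 0.05, -0.71, -0.59, -0.88, -1.08 and -0.03, with the lowest again at ZT12 and ZT16. Those of cholesterol synthesis were 0.10, -0.77, -0.84, -0.67, -1.065 and -0.27, with the lowest at ZT8 and ZT16. For single genes, Elovl6 and Sqle were lower in HFD at all 6 times, as were 11 of the 12 leading decreases, and 7 of the 12 leading increases were higher at all 6.

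**Figure D5:**
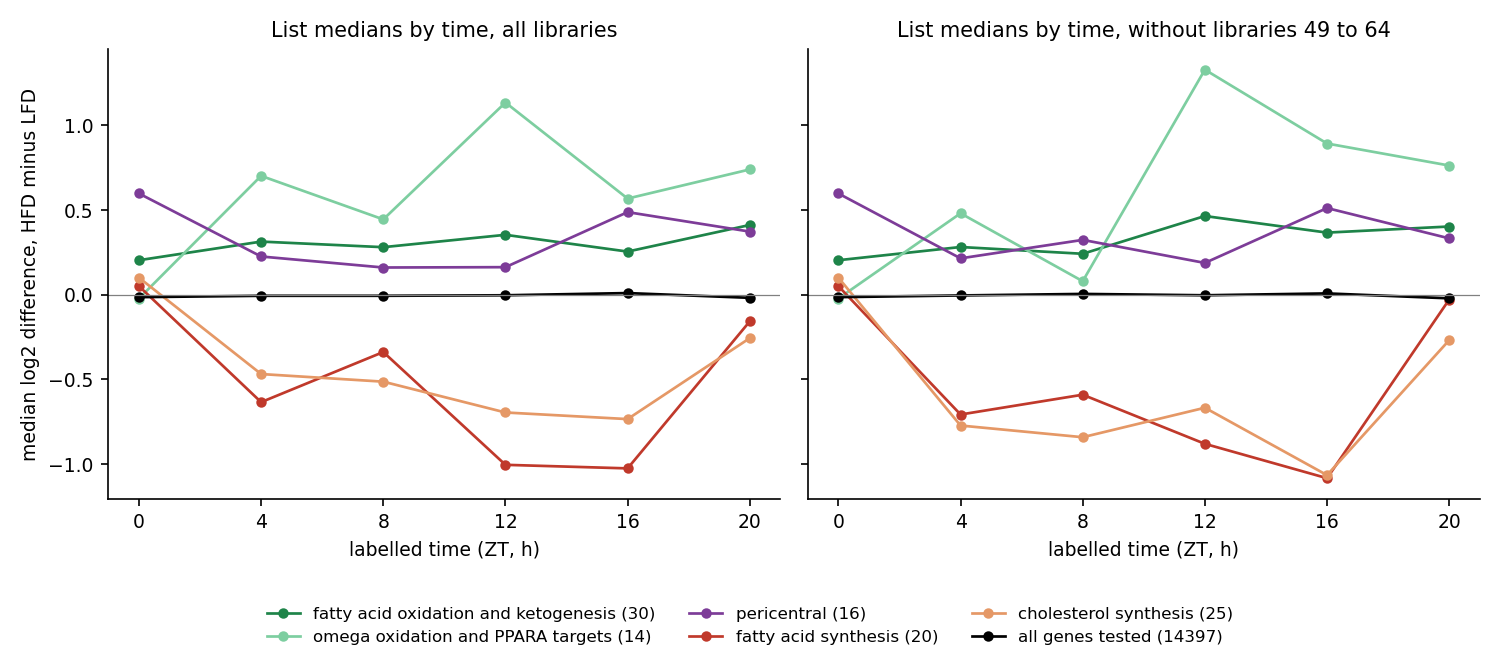
Median log2 difference between HFD and LFD over the members of 5 gene lists and over all genes tested (vertical axis) at each labelled time (horizontal axis, ZT in h), with all libraries on the left and without library numbers 49 to 64 on the right. The synthesis lists lie near 0 at ZT0 and lowest at ZT12 or ZT16 on the left, while the fatty acid oxidation list lies above 0 at all 6 times. The ZT0 points rest on 3 LFD libraries, among them number 44, and no gene was called for diet by time.

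The diet difference in Equal light was also set against the mean of the diet differences in Long and Short light, whose libraries do not overlap with it. Limma called 0 of 14397 genes (0%), with 504 at an unadjusted p under 0.05 and a smallest adjusted p of 0.9995. The 504 are a smaller share of all genes than the 0.05 of that threshold. Limma-voom called 0 as well, and without numbers 49 to 64 limma called 0 with 669 at an unadjusted p under 0.05. Over all genes, the 95% interval had a half-width of 0.194 log2 at the median. The genes with the smallest p were Meg3, Tpcn2, Ttf2 and Hdhd2. Meg3, a long non-coding RNA, had log2 diet differences of -0.17 in Equal, 0.69 in Long and 0.35 in Short light (unadjusted p = 0.0002). The list medians lay on the same side of 0 in Equal, Long and Short light for fatty acid oxidation (0.31, 0.25 and 0.17), pericentral genes (0.26, 0.33 and 0.26), cholesterol synthesis (-0.38, -0.19 and -0.37) and fatty acid synthesis (-0.44, -0.20 and -0.34). They lay on both sides for the unfolded protein response (0.29, -0.12 and 0.15) and the acute phase (0.25, -0.04 and 0.21).

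The promoters of the named lipid genes were searched for the SRE-like word TCACNCCAC and the DR1 word, 2 copies of AGGNCA with an A between them, on both strands, in 250 bases before to 50 bases after the start. The words occur in 1.24% and 0.09% of all promoters. Of the 5 named genes each of fatty acid synthesis, cholesterol synthesis, beta oxidation and omega oxidation, 4, 2, 4 and 3 had a promoter entry, and 0 held either word. An E-box was found in Aldh3a2 among them, and in Bhlhe41, Ciart, Cry1 and Per1 of 12 clock genes with an entry. The absence of these letters from this window says nothing about the factors.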

How the data were processed

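Of the libraries of liver RNA, the 40 of Equal light are described. Libraries were made with a stranded TruSeq poly-A kit and read on a NovaSeq, per the labels' protocols. The submitters' processing notes name build mm10 (GRCm38), STAR, Subread 1.6.2 and featureCounts. How the values were normalized, and whether counting used strand, the sources used here do not say. What the authors deposited is 1 table of log2 CPM values for 15398 genes. Its floor of -3.6124 stands for 0.08176 CPM, a prior count of 2 reads on average, so that log2 differences understate the change of low genes. Reads recovered from the values were whole, within 0.05 read, for 99.43% to 99.73% of values, and limma-voom on them called 973 genes. They gave the depth per library, 23.48 M reads at the median in Equal light, where 1 read is worth 0.0425 CPM on average. Columns were matched to samples by the code in the title, and 0 were left unmatched.

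A gene was tested where 3 or more libraries reached 1 CPM. With limma 3.58.1 (R 4.3.3), a model of the log2 values of all libraries of the series was fitted with 1 mean per group (36 groups), since the groups then share 1 estimate of the spread, and a trend of variance on expression. The diet difference weights the 6 times equally. Diet by time is an F test over 5 contrasts. The Benjamini-Hochberg adjustment covers all 14397 genes. Replicate numbers are only names in deposit order and pair no samples. For 48 pairs of replicates, chi-square per degree of freedom was at least 14.3, so none was counted as the same sample.

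The libraries, gene lists and the range 49 to 64 were chosen with earlier results of these data known. Named genes are the 12 largest increases and 12 largest decreases among called genes with a mean of at least 2 log2 CPM, up to 5 members per list by p, the 8 and 5 smallest p for diet by time and against the other photoperiods, and the clock genes. Gene models without a proper name were only counted, and 2 named genes are not reported here. Positions are 1-based, from GENCODE mouse release M21 on GRCm38. Scripts were tested on simulated data.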

Additional observations from a re-analysis of the deposited data

Results flagged for a closer look

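In the 4 Equal light groups with 4 libraries, 24 genes with the largest differences were searched for a library far from the other 3 of its group. Chance alone gives about 1 such case in 20, and 8 of 96 combinations had one. In HFD ZT4 the library numbered 53 stood at 8.20 log2 CPM for Fabp5, where the other 3 ran from 3.94 to 4.62, and at 6.14 for G6pdx, where they ran from 3.21 to 3.36. In LFD ZT12 the library numbered 54 stood at 7.51 for G6pdx beside 3.11 to 3.76, and at 6.57 for Pnpla3 beside 4.66 to 4.96. Numbers 53 and 54 are 2 of the libraries whose clock genes were nearest to another time than their label. In LFD ZT16 the library numbered 11, whose clock genes were nearest to its own time, stood at 5.76 for Adgrf1 beside 3.78 to 3.97, at 2.69 for Fitm1 beside 3.72 to 3.92, and at 2.51 for Vnn1 beside 4.60 to 4.94. In HFD ZT20 the library numbered 60 stood at -0.68 for Slc2a4 beside 1.24 to 1.6.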

How the results depend on the processing

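The 986 calls of the diet difference became 603 with only the 40 Equal light libraries in the fit and 2614 with array weights. They became 194 to 763 without all libraries of replicate 1, 2, 3 or 4, the last found in only 4 of the 12 Equal light groups. Without any single Equal light library they ranged from 724 (LFD ZT8 replicate 1) to 1227 (number 46). Under the other settings (a prior count of 0.5, no filter or a stricter one, other scalings, limma-voom, no trend, an additive model, library number as a covariate, without libraries high in pancreas or muscle markers, without numbers 49 to 64, or 44 to 46) the count stayed within 1.5 times. The share higher in HFD was 51.1%, between 48.9% and 54.7% outside the replicate settings, and 63.9% without replicate 1. Diet by time gave 0 calls under every setting except without the single LFD ZT0 library numbered 40, with 17. Against the other photoperiods, the 3 alternatives gave 0 calls.

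Without numbers 49 to 64 the calls among list members were 9 for fatty acid synthesis, 14 for cholesterol synthesis, 7 for conjugation, 3 for gluconeogenesis, 3 for the urea cycle, 9 for the acute phase, 5 for interferon, 4 for male-biased genes and 9 for macrophages, against 6, 4, 3, 1, 0, 5, 2, 1 and 3 with all libraries. These lists held 20, 25, 21, 16, 14, 20, 17, 20 and 20 measured genes. Over all genes the calls also rose, to 9.82% from 6.85%. Without replicate 1 of every group the calls fell to 0 for fatty acid synthesis, cholesterol synthesis and macrophages. They fell to 1 for omega oxidation, the acute phase, bile acids and amino acids. The calls were 2 for drug metabolism and lipid droplets and 3 for pericentral genes. Those of fatty acid oxidation fell to 12 and those of fatty acid synthesis to 1 without replicate 2. Leaving out replicate 4 gave 0 calls for cholesterol synthesis and 1 each for fatty acid synthesis and the acute phase. With only the 40 Equal light libraries, 2 acute phase genes and 1 macrophage marker were called. The calls over all genes fell under these settings too, as given above. The cause of the changes in the lists was not tested. Of 46 genes, 0 reversed, 31 lost their call under at least 1 of 18 settings, and 14 without at least 1 single library. No paired analysis was possible because the labels carry no replicate numbers. With 3 or 4 libraries a group, the median half-width of the diet difference's 95% interval was 0.159 log2, and single times were less precise. The settings without numbers 44 to 46 and without single libraries were chosen after seeing the data.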

Other observations

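Gene groups outside the comparisons above are given as values. Of 11 female-biased liver genes 2 rose in HFD and 0 fell, Cyp2b9 and Hao2, a peroxisomal hydroxyacid oxidase (log2 difference 1.18, SE 0.37, limma adjusted p = 0.0367), and of 20 male-biased genes Mup17 alone passed. Both counts stand beside 6.85% called over all genes. The median log2 difference of the female-biased list was 0.39 and that of the male-biased list 0.06. Differences below 0 were found for 5 female-biased and 9 male-biased genes. Without numbers 49 to 64, 3 male-biased genes rose and 1 fell, with a median of -0.03. The female-biased list then again had 2 higher and 0 lower. All 15 cell cycle genes had a difference below 0, with a median of -0.38, and 1 fell, beside 6.85% called over all genes. The median was -0.23 without numbers 44 to 46 and -0.18 without replicate 1 of every group. The gene that fell was Rrm2, a subunit of ribonucleotide reductase, which ran from 2.21 to 4.20 log2 CPM with a median of 2.72 in HFD and from 2.63 to 5.93 with a median of 3.77 in LFD (log2 difference -0.78, SE 0.20, adjusted p = 0.00658). In Long and Short light the medians of the cell cycle list were 0.04 and -0.08, and the difference between photoperiods had 0 calls by limma and by limma-voom (504 unadjusted p-values under 0.05 in limma).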
